A study of Homo sapiens with 48 samples.

Results

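RARB, the gene of retinoic acid receptor beta, was followed together with 7 genes of the same receptor system, and these 8 genes were chosen by name from the 14685 genes counted in every library. They are the receptor genes RARA, RARB, RARG, RXRA and RXRB, the retinaldehyde reductase gene DHRS3, the retinoic acid binding protein gene CRABP2 and the co-regulator gene NRIP1. All 8 were found in the count tables of each time point, and none was lost to the filter on low counts. In bulk RNA, fewer cells that express a gene and less RNA per cell cannot be told apart. RARB was put at the head of the set because its counts differed between arms in these same libraries, so that the differences between arms below describe the members and were not used as a test of them.

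The libraries come from HEK293T cells, a human embryonic kidney line, in which a plasmid drives NCBP1, a subunit of the nuclear cap-binding complex, fused to Halo. Halo captures a photocaged precursor of the lipid electrophile HNE, Ht-PreHNE, and light then frees HNE beside NCBP1 (T-REX). All 4 arms carry the plasmid: T-REX with probe and light, light alone, probe alone, and DMSO as the vehicle with no light. For light alone, the Methods list the probe as well as light, whereas the sample labels name only light, and this was left as an ambiguity of that arm. Each arm was sampled at 3, 6 and 12 h with 4 libraries, 48 in all, and total counts lay between 23952455 and 37099535 per library. The labels do not give separate days or runs for the time points, so time and any difference in handling between time points cannot be told apart. Of 6 markers of HEK293T, 5 were counted in every library, among them LIN28B, SALL1, NEFM and EYA1, but PAX2 was not among the genes tested. None of 5 markers of blood, liver or stroma (PTPRC, ALB, HBB, CD3E, COL1A2) was among the genes tested either. NCBP1, counted together with the plasmid, held between 3.08% and 9.22% of the scaled counts of a library.

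Retinoic acid, made from vitamin A, enters the nucleus with the help of binding proteins such as CRABP2 and binds RAR proteins, which sit on DNA as dimers with RXR proteins. Without ligand, RAR dimers hold co-repressors and keep target genes low, and ligand exchanges these for co-activators. RARB is itself a classical target of retinoic acid, through a response element in its promoter. DHRS3 turns retinaldehyde back into retinol and is also induced by retinoic acid, and NRIP1 (RIP140) is recruited to ligand-bound nuclear receptors and dampens them.

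The promoter of RARB is shown because RARB was the member with the widest spread between arms. RefSeq (GRCh38.p14) gave 19 promoter windows for the 8 members, from 250 bases before to 50 bases after a start, and 4 of them belong to RARB. Direct repeats of the core motif AGGTCA or of its common forms, which are AGTTCA and also GGGTCA and finally GGTTCA, with 1, 2 or 5 bases between the repeats, were searched on both strands. One window of RARB held a repeat with 5 bases between, at 53 to 37 bases before the start on the forward strand, and no other window of a member held any of the 3 kinds. Of all 35116 windows, 31 (0.0883%) held a repeat with 5 bases between, 14 (0.0399%) one with 2 and 46 (0.131%) one with 1. The 250 bases before that start, at chr3:25428013-25428262 on the forward strand, are printed 5′ to 3′ with both repeats in capitals.
RARB promoter: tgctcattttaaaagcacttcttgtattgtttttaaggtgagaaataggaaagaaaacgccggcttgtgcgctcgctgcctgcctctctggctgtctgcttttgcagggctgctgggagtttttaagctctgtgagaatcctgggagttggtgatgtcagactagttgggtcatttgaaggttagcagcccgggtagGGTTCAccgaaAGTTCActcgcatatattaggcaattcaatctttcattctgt
The counts are per gene, so which of the RARB starts gave the reads could not be read from them.

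Levels are CPM, which are counts scaled to a common library total, with that total adjusted by TMM. Within DMSO at 3 h and per kilobase of exon (GENCODE 29), RXRB (9.12 ± 0.844 CPM per kilobase, SD, n = 4) and NRIP1 (9.12 ± 0.353) stood highest and RARB followed at 6.85 ± 0.30. RARA had 3.14 ± 0.737, DHRS3 2.17 ± 0.321, CRABP2 1.64 ± 0.281, RXRA 0.764 ± 0.142 and RARG 0.535 ± 0.051. RARB was thus the most abundant of the 3 RAR genes and RXRB the more abundant RXR gene in these cells, on the per-kilobase scale. RXRG, the third RXR gene, was not among the genes tested. Every member had counts in every library, from 32 for CRABP2 to 3541 for NRIP1 at the extremes, so that none rested on a count near 0.

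RARB was highest in mean with probe alone and next with DMSO at each time point, and lowest for light alone at 3 h and for T-REX at 6 and 12 h. At 3 h, the T-REX libraries had 20.02, 20.9, 17.4 and 17.6 CPM (replicates 1 to 4), and light alone had 17.9, 16.5, 14.3 and 15.8. Probe alone had 38.3, 42.7, 34 and 33.8 CPM at 3 h, and DMSO had 26.6, 25.6, 24 and 25.1. The ranges of T-REX and light alone overlapped, both lay wholly below DMSO, and probe alone lay wholly above DMSO.

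At 6 h, T-REX had 24.9, 25.1, 22.6 and 24 CPM and light alone had 29.5, 33.9, 32.1 and 26.7. Probe alone had 57.4, 53.3, 52.6 and 52 CPM, and DMSO had 36.1, 39.1, 34.1 and 32.7. T-REX was now below each other arm with no overlap, and light alone overlapped DMSO. At 12 h, T-REX had 21.2, 18.6, 22.4 and 22.6 CPM, light alone 25.6, 25.7, 27.2 and 25.4, probe alone 48.2, 58.2, 48.5 and 51.1, and DMSO 38, 43, 49.7 and 41.3. T-REX again lay below each other arm, light alone lay wholly below DMSO, and probe alone overlapped DMSO.

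**Figure D1:**
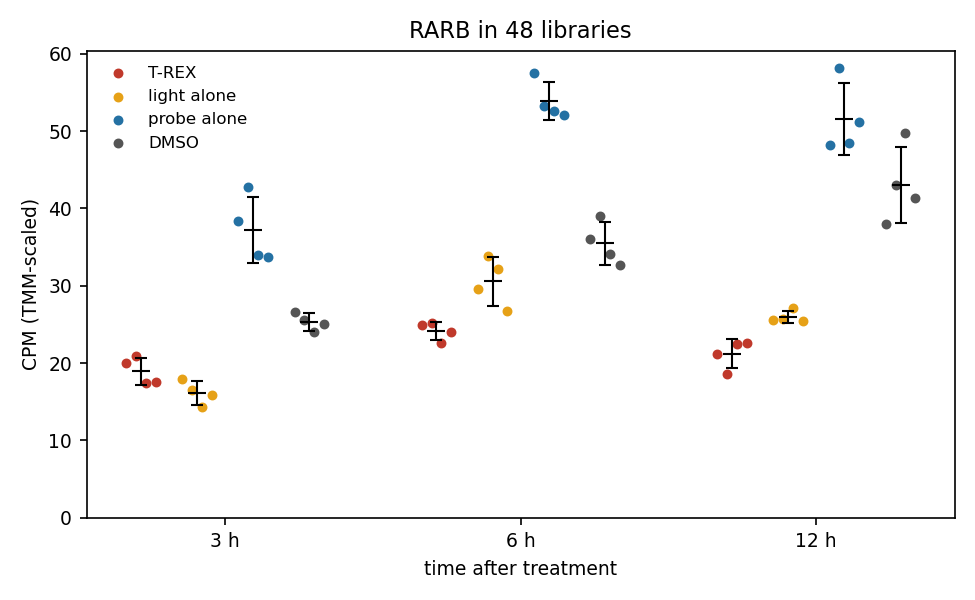
CPM of RARB in each of the 48 libraries (points), by time after treatment on the x axis and by arm (colour), with the mean and SD of 4 libraries in black. Probe alone is the highest arm at each time, and T-REX stays between 17.4 and 25.1 CPM while DMSO climbs from a mean of 25.3 at 3 h to 43 at 12 h.

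Over the 12 groups the mean of RARB ran from 16.1 ± 1.5 CPM (light alone, 3 h) to 53.8 ± 2.46 (probe alone, 6 h), n = 4 each. The 4 lowest groups were light alone at 3 h and T-REX at 3 h (19 ± 1.74), 12 h (21.2 ± 1.88) and 6 h (24.2 ± 1.15). They were followed by DMSO at 3 h (25.3 ± 1.11), light alone at 12 h (26 ± 0.805) and 6 h (30.6 ± 3.11), and DMSO at 6 h (35.5 ± 2.77). Probe alone at 3 h (37.2 ± 4.26), DMSO at 12 h (43 ± 4.95) and probe alone at 12 h (51.5 ± 4.64) came next. Each group overlapped its neighbour in this order in the range of its libraries, so the order of neighbours is not separated by their spread.

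In edgeR, the log2 fold change of RARB for T-REX against probe alone was -0.96 (SE 0.088) at 3 h, -1.16 (SE 0.078) at 6 h and -1.28 (SE 0.086) at 12 h, which is 0.515, 0.449 and 0.411 times the level of probe alone. Against DMSO it was -0.41 (SE 0.088), -0.56 (SE 0.079) and -1.02 (SE 0.086). Against light alone it was 0.23 (SE 0.090), -0.34 (SE 0.079) and -0.29 (SE 0.087), so that T-REX was the higher of the pair at 3 h and the lower at 6 and 12 h. The 3 comparisons of a time point share the T-REX libraries.

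The controls also differed in RARB. Light alone against DMSO gave log2 fold changes of -0.64 (SE 0.089), -0.22 (SE 0.078) and -0.73 (SE 0.085) at 3, 6 and 12 h, and probe alone against DMSO gave 0.54 (SE 0.087), 0.60 (SE 0.077) and 0.26 (SE 0.083). Light alone against probe alone gave -1.19 (SE 0.089), -0.82 (SE 0.078) and -0.99 (SE 0.085). The light and probe contrast, which is T-REX minus light alone minus probe alone plus DMSO on the log2 scale and asks whether the T-REX level is the sum of the steps of the single controls, was -0.31 (SE 0.12) at 3 h, -0.94 (SE 0.11) at 6 h and -0.55 (SE 0.12) at 12 h for RARB. The T-REX level of RARB was thus below that sum at each time, by the most at 6 h. If light alone also held the probe, as the Methods list, it is no single control and this reading does not hold.

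A gene was called where its adjusted p was at most 0.05. Between T-REX and light alone, 0 of 8 members were called at 3, 6 and 12 h in edgeR, where 0.197%, 0.218% and 1.29% of all genes were called. Of these 24 values, 5 had an unadjusted p of at most 0.05. So had 2174, 1711 and 1891 of all 14685 genes at 3, 6 and 12 h. DESeq2 called 1 of the 24, and its share of all genes is not given here. Between T-REX and probe alone, 2, 1 and 2 members were called at 3, 6 and 12 h (1.05%, 0.109% and 0.701% of all genes), and between T-REX and DMSO 2, 1 and 2 (5.99%, 0.415% and 10.9%).

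Between light alone and DMSO, 1, 0 and 1 members were called at 3, 6 and 12 h (0.00681%, 0.00681% and 0.0136% of all genes), and between probe alone and DMSO 1, 1 and 0 (0.00681%, 0.0272% and 5.11%). Between light alone and probe alone the numbers were 1, 1 and 2 (0.232%, 0.0613% and 0.415%). The light and probe contrast called 0, 1 and 0 members (0%, 0.034% and 0.0613%), the 1 being RARB at 6 h. The members were chosen with these contrasts in view, so nothing is read from their number against the share of all genes. RARB made up 13 of the 18 calls in the 18 comparisons of 2 arms and NRIP1 and DHRS3 the other 3 and 2. The call of RARB between light alone and DMSO at 3 h ended when light alone replicate 3 was left out (log2 fold change -0.59). That between probe alone and DMSO at 3 h was lost when any 1 of the 8 libraries of those arms was left out (0.47 to 0.59), or T-REX replicates 2 or 4 or light alone replicates 2 or 4, which share the fitted spread. T-REX against light alone was called for RARB at 6 h without light alone replicate 4 (-0.40) and at 12 h without DMSO replicate 3 (-0.29), and without that library probe alone against DMSO at 12 h was called too (0.34).

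**Figure D2:**
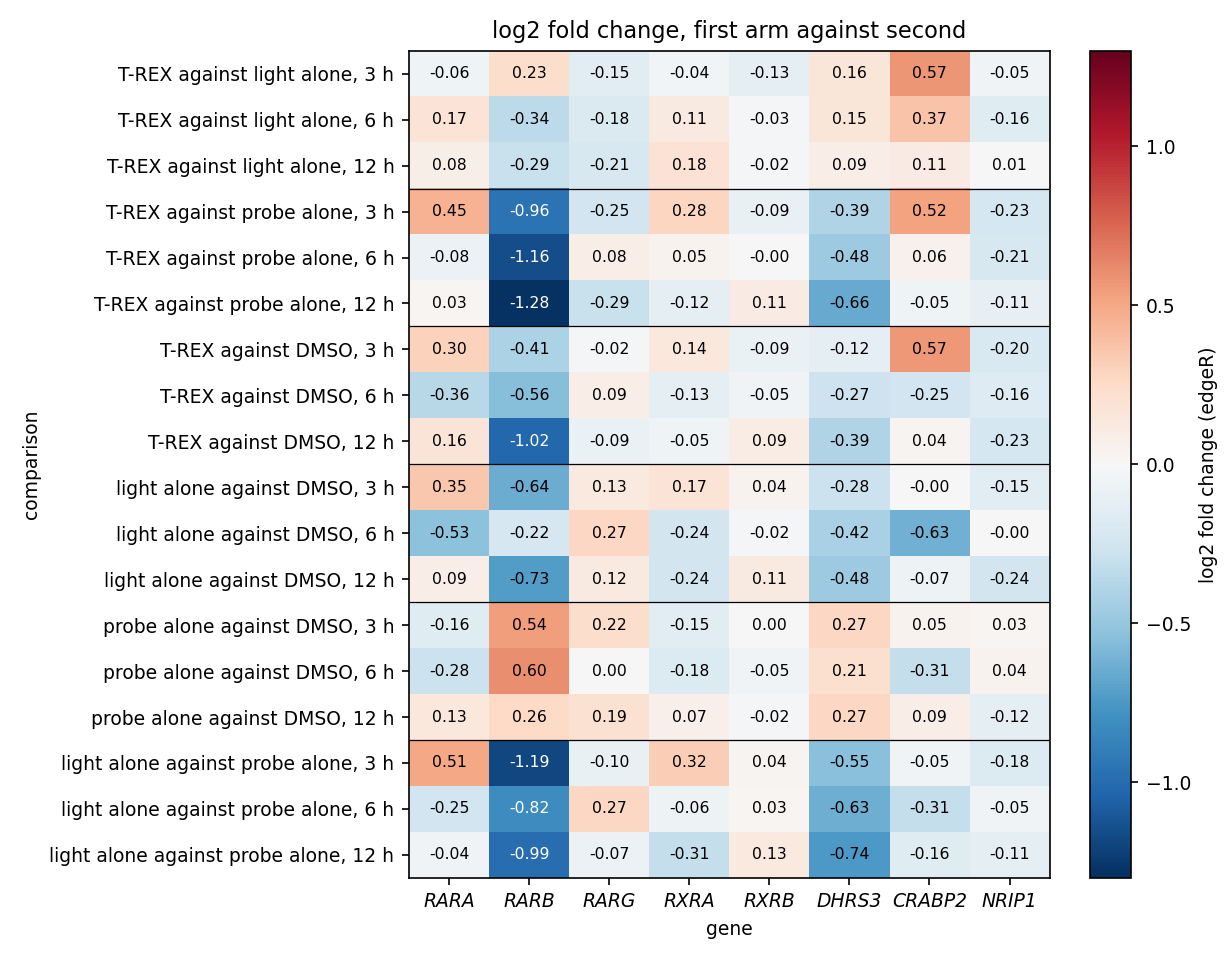
The log2 fold changes of the 8 members (columns) in the 18 comparisons of 2 arms (rows), first arm against second, coloured from blue (lower) to red (higher) and printed in each cell. The RARB column is blue against probe alone and DMSO and red for probe alone against DMSO, DHRS3 shows the same signs there at smaller size, and RXRB stays between -0.13 and 0.13.

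DHRS3, at lower counts, was also highest in mean with probe alone and next with DMSO at each time. Its lowest mean was with light alone throughout, whereas that of RARB was under T-REX at 6 and 12 h. For DHRS3, light alone and T-REX had means of 6.95 and 7.74 CPM at 6 h and 8.21 and 8.69 at 12 h. At 3 h, DHRS3 had 5.43, 7.14, 6.38 and 5.28 CPM under T-REX and 5.25, 6.15, 6.08 and 4.15 for light alone. The probe alone libraries had 8.69, 7.65, 7.92 and 7.81 CPM and the DMSO libraries 5.43, 6.15, 7.55 and 7.22. At 12 h it had 7.91, 7.58, 8.73 and 10.54 CPM under T-REX and 8.0, 8.11, 9.11 and 7.60 for light alone. By then the probe alone libraries had 11.7, 14.3, 12 and 16.9 CPM and the DMSO libraries 11.9, 12, 9.71 and 11.9. Probe alone lay wholly above T-REX and above light alone at 3, 6 and 12 h, T-REX and light alone overlapped throughout, and T-REX overlapped DMSO at each time.

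The log2 fold change of DHRS3 for T-REX against probe alone was -0.39 (SE 0.14) at 3 h, -0.48 (SE 0.14) at 6 h and -0.66 (SE 0.13) at 12 h, and for light alone against probe alone -0.55 (SE 0.15), -0.63 (SE 0.14) and -0.74 (SE 0.13). Both differences were called at 12 h alone. For T-REX against light alone, the values were 0.16 (SE 0.15), 0.15 (SE 0.14) and 0.09 (SE 0.13), and for T-REX against DMSO -0.12 (SE 0.15), -0.27 (SE 0.14) and -0.39 (SE 0.13). The light and probe contrast of DHRS3 was -0.11 (SE 0.21), -0.05 (SE 0.19) and -0.18 (SE 0.18), within its error of 0 at 3 and 6 h and about 1 SE from it at 12 h. At 12 h, the call against probe alone was lost without T-REX replicates 1 (-0.61) or 2 (-0.60) or probe alone replicate 2 (-0.64). T-REX against DMSO, just short of the threshold at 12 h, was called without T-REX replicate 4 (-0.50), DMSO replicate 3 (-0.45) or probe alone replicate 4 (-0.38), and light alone against probe alone at 6 h without light alone replicate 4 (-0.71).

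NRIP1 was lower by a small step under T-REX, and for light alone at 3 and 12 h by a step of like size that was not called. At 3 h it had 70.8, 70.7, 66.8 and 61.5 CPM under T-REX and 71.5, 67.6, 66.4 and 73.0 with light alone, against 79.6, 85.8, 76.2 and 77.0 with probe alone and 77.7, 80.6, 73.4 and 78.2 with DMSO. The first pair of arms overlapped and lay wholly below the second pair. The log2 fold change of T-REX against DMSO was -0.20 (SE 0.054) at 3 h, -0.16 (SE 0.059) at 6 h and -0.23 (SE 0.065) at 12 h, and against probe alone -0.23 (SE 0.054), -0.21 (SE 0.059) and -0.11 (SE 0.065). Those against DMSO at 3 and 12 h and against probe alone at 3 h were called. Light alone against DMSO gave -0.15 (SE 0.054), -0.0044 (SE 0.059) and -0.24 (SE 0.065), none of them called. At 12 h the DMSO libraries had 96.1, 108, 124 and 95.6 CPM and T-REX 93.4, 89.2, 87.7 and 90.6, and without DMSO replicate 3 the log2 fold change was -0.14 and no longer called.

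The NRIP1 calls hung on single libraries. At 12 h the call against DMSO was also lost without T-REX replicates 2 (-0.22), 3 (-0.22) or 4 (-0.23) or DMSO replicate 2 (-0.22). At 3 h it was lost without T-REX replicate 4 (-0.16) or DMSO replicates 1 (-0.19), 2 (-0.18) or 4 (-0.20), and the call against probe alone was lost in 11 of 16 fits that each dropped a library (log2 fold changes over all 16 from -0.25 to -0.19). Against light alone, the log2 fold change of NRIP1 was -0.05 (SE 0.054), -0.16 (SE 0.059) and 0.01 (SE 0.065) at 3, 6 and 12 h.

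**Figure D3:**
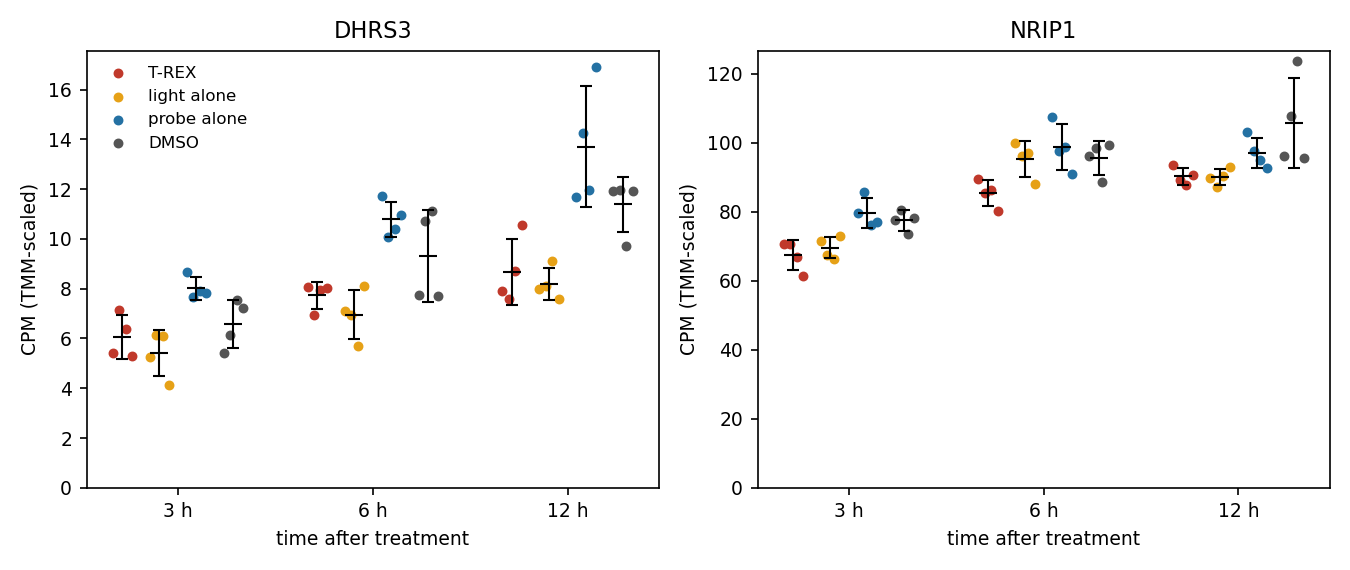
CPM of DHRS3 (left) and NRIP1 (right) in each library (points), by time after treatment on the x axis and by arm (colour), with the mean and SD of 4 libraries in black. In DHRS3, probe alone lies above T-REX and light alone at each time, and NRIP1 rises from means between 67.4 and 79.7 at 3 h to between 90.1 and 105.7 at 12 h.

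The other 4 receptor genes and CRABP2 were not called in any of the 18 comparisons of arms, by edgeR or by DESeq2. RXRB was the steadiest member, with 31.1 to 47 CPM over the 48 libraries and log2 fold changes between arms from -0.13 to 0.13 (SE 0.074 to 0.077). RARG, at 1.70 to 5.05 CPM, had log2 fold changes from -0.29 to 0.27 (SE 0.17 to 0.24). Neither had an unadjusted p of at most 0.05 in any of the 18. A difference of RARG of about its SE, or moderately larger, would not have been called.

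RARA and RXRA, the alpha receptors, varied widely between replicates. At 3 h RARA had 11.4, 13.8, 22.7 and 24.9 CPM in the T-REX libraries and RXRA had 4.52, 7.94, 12.4 and 12.3, so that replicates 3 and 4 were the high ones for both. With light alone at 3 h RARA had 15.2, 25.05, 22.4 and 12.7 CPM and RXRA 6.95, 10.47, 12.6 and 7.97, with replicates 2 and 3 high for both. The log2 fold changes of RARA between arms ran from -0.53 to 0.51 (SE 0.14 to 0.28) and those of RXRA from -0.31 to 0.32 (SE 0.14 to 0.27), and each had 1 unadjusted p of at most 0.05 in 18. With the deposited RUV factors as covariates, 6 of the 18 differences of RARA, 1 of those of RXRA and 1 of those of CRABP2 were called. In those fits between 1.25% and 26.7% of all genes were called per comparison.

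CRABP2 was the member with the lowest level per library, 1.06 to 3.38 CPM. At 3 h the T-REX libraries had 1.94, 3.08, 3.38 and 2.22 CPM, the light alone libraries 1.76, 1.49, 1.83 and 2.09, the probe alone libraries 2.08, 1.47, 1.82 and 2.14, and the DMSO libraries 1.5, 2.16, 1.59 and 1.94. T-REX replicates 2, 3 and 4 lay above every control library, and replicate 1 lay among them. The log2 fold changes of T-REX at 3 h were 0.57 (SE 0.21) against light alone, 0.52 (SE 0.21) against probe alone and 0.57 (SE 0.21) against DMSO, none of them called.

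**Figure D4:**
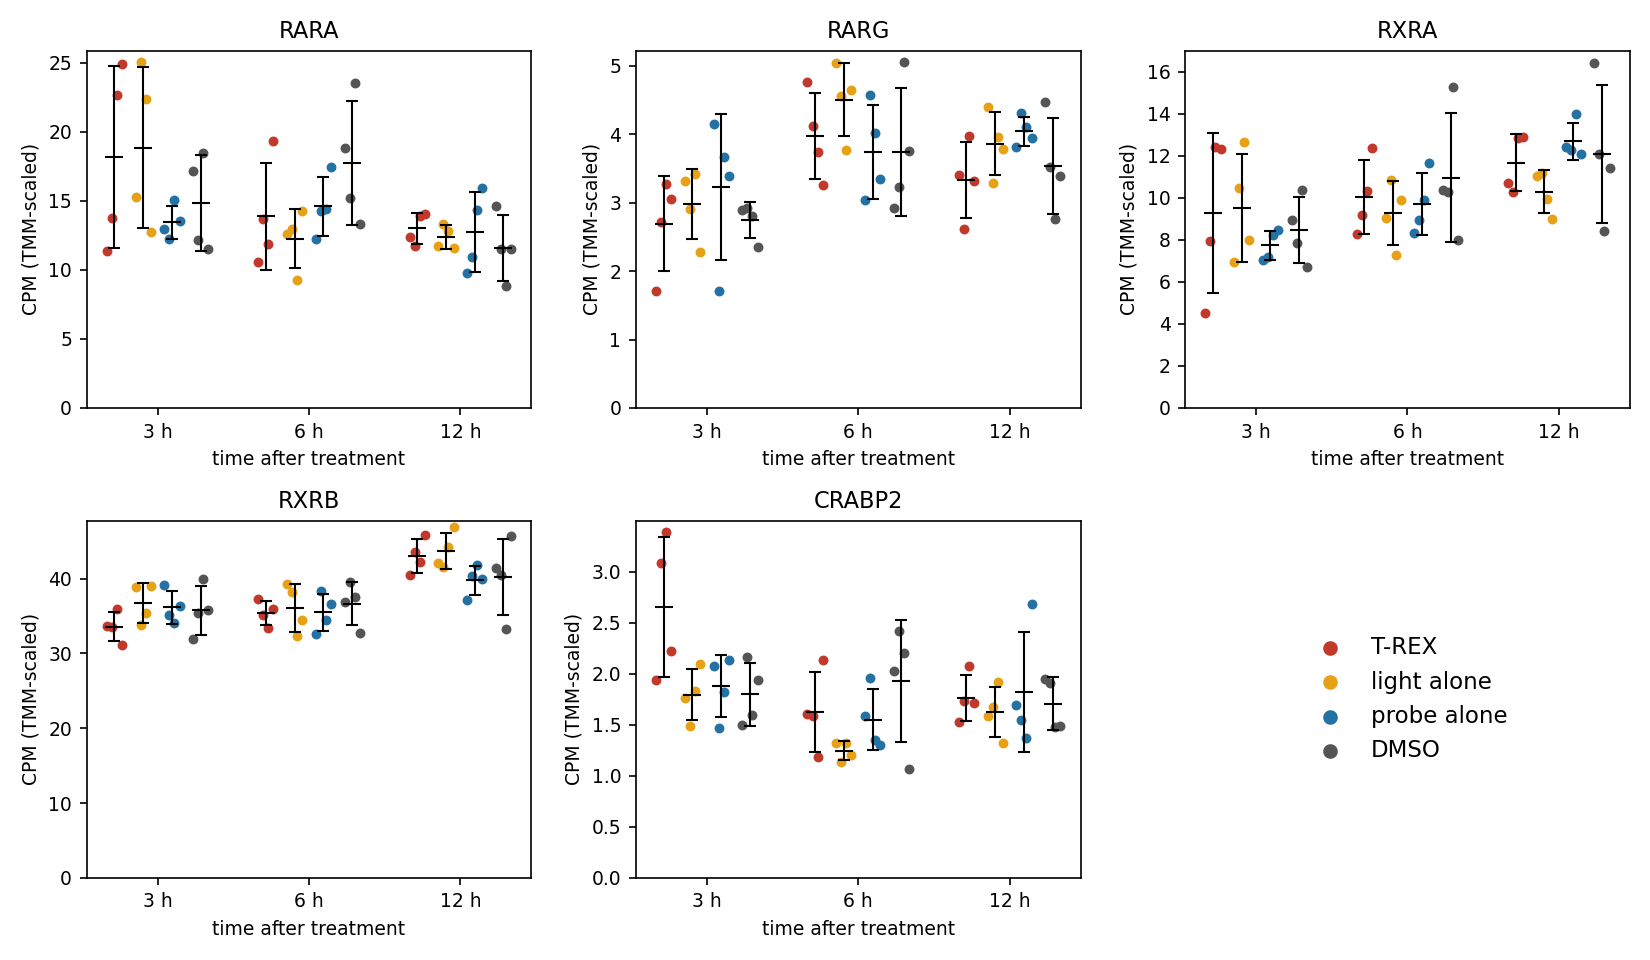
CPM of RARA, RARG, RXRA, RXRB and CRABP2 in each library (points), by time after treatment on the x axis and by arm (colour), with the mean and SD of 4 libraries in black. Arms overlap at each time except light alone and probe alone for RXRA at 12 h, 3 of the 4 T-REX libraries of CRABP2 stand above the controls at 3 h, and RARA and RXRA spread widely within arms at 3 h.

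Change with time within an arm was fitted in 1 edgeR model of all 48 libraries. It is not the measure for which RARB was chosen, but it uses the same group levels as the arm differences that were. The members were also chosen with earlier results known, so the adjusted p over time, those of RARB above all, are not independent of the choice. Of 8 members, 4 were called under T-REX between 3 and 6 h and 4 between 3 and 12 h, where 23.3% and 41.7% of all genes were called. With light alone the numbers were 4 and 5 (25.3% and 39.4%), with probe alone 3 and 4 (21.5% and 42.3%) and with DMSO 3 and 3 (16% and 38.8%). In all, 30 of 64 values were called. The median log2 fold change of the 8 members lay between 0.17 and 0.41 in these comparisons, beside -0.01 to 0.01 over all genes.

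RARB rose in every arm by 6 h and, except under T-REX, stayed up at 12 h. By edgeR with Benjamini-Hochberg adjustment, the rise with DMSO was 0.49 (log2 fold change, SE 0.084, adjusted p = 3.72e-05) at 6 h and 0.76 (SE 0.084, adjusted p = 4.00e-10) at 12 h. With light alone, RARB rose by 0.92 (SE 0.086, adjusted p = 2.36e-11) at 6 h and 0.69 (SE 0.086, adjusted p = 1.05e-08) at 12 h. With probe alone the rise was 0.53 (SE 0.082, adjusted p = 3.73e-06) and 0.47 (SE 0.082, adjusted p = 7.31e-06). Under T-REX it was 0.35 (SE 0.086, adjusted p = 0.00229) at 6 h and 0.16 (SE 0.086, adjusted p = 0.130) at 12 h.

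Whether the difference between T-REX and a control changed with time was fitted as an interaction. It is built from the arm differences for which RARB was chosen, so its calls are a description of these members and no test of them. By edgeR, 0 of 8 members were called in any of the 6 such contrasts. Of the 48 values, 7 had an unadjusted p of at most 0.05, as had 671 to 2259 of all 14685 genes per contrast. DESeq2 called 2 of the 48, both of them RARB from 3 to 12 h (against light alone and against DMSO). Its share of all genes is not given here. With edgeR, for 6 against 3 h 0% of all genes were called against light alone, and for 12 against 3 h 0.0204%. Against probe alone the shares were 0% and 0.0681%, and against DMSO 0.0136% and 0.00681%. The change of the RARB difference from 3 to 12 h was -0.60 (SE 0.12) against DMSO, -0.52 (SE 0.12) against light alone and -0.31 (SE 0.12) against probe alone. That against DMSO was called in 15 of 48 fits that each dropped a library (-0.66 to -0.58).

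NRIP1 rose with time in all 4 arms, by 0.30 to 0.45 (log2) at 6 h and 0.29 to 0.45 at 12 h, with adjusted p from 5.00e-08 to 0.000285 in edgeR. DHRS3 rose by 12 h in all 4 arms, by 0.79 (SE 0.14, adjusted p = 6.83e-06) with DMSO, 0.77 (SE 0.13, adjusted p = 6.07e-06) with probe alone, 0.60 (SE 0.14, adjusted p = 0.000508) with light alone and 0.52 (SE 0.14, adjusted p = 0.00204) under T-REX. At 6 h DHRS3 had risen with DMSO (0.50, adjusted p = 0.00813) and probe alone (0.43, adjusted p = 0.0184) in edgeR. Those 2 calls were lost without DMSO 6 h replicate 3 (0.41, adjusted p = 0.0537) and without probe alone 6 h replicate 1 (0.38, adjusted p = 0.0560). RXRB rose by 12 h under T-REX (0.36, SE 0.077, adjusted p = 0.000176) and with light alone (0.25, SE 0.076, adjusted p = 0.00754), and RXRA with probe alone (0.71, SE 0.21, adjusted p = 0.00613).

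The remaining time calls rested on few libraries. CRABP2 fell under T-REX from 3 to 6 h (-0.72, SE 0.22, adjusted p = 0.0146) and to 12 h (-0.60, SE 0.22, adjusted p = 0.0235) in edgeR, from the high 3 h libraries given above. Both calls were lost without T-REX 3 h replicate 2 (-0.64, adjusted p = 0.05003, and -0.52, adjusted p = 0.0752) or replicate 3 (-0.58, adjusted p = 0.0796, and -0.46, adjusted p = 0.116), that at 6 h without T-REX 6 h replicate 3 (-0.59, adjusted p = 0.0790) and that at 12 h without T-REX 12 h replicate 1 (-0.54, adjusted p = 0.0716). RARA fell with light alone to 6 h (-0.62, adjusted p = 0.0368) and 12 h (-0.61, adjusted p = 0.0277), and RARG rose to 6 h under T-REX (0.56, adjusted p = 0.0375) and with light alone (0.59, adjusted p = 0.0228). For RARA, leaving out light alone 3 h replicates 2 or 3, light alone 6 h replicates 1, 2 or 3, or light alone 12 h replicates 1 or 4 ended the call of that time, with log2 fold changes over the fits from -0.77 to -0.44. For RARG, T-REX 3 h replicates 1 or 2, T-REX 6 h replicates 1, 2 or 3, light alone 3 h replicates 2 or 4, or light alone 6 h replicate 1 did so, with log2 fold changes from 0.40 to 0.67.

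A wider list of the retinoid pathway, drawn up from textbook roles, held 83 genes, of which 54 were tested. Earlier results of these data were known when it was drawn up. Its calls, shares and adjusted p are therefore a description and no test of the list. The tested ones were 8 of 8 co-repressor genes such as NCOR1 and HDAC3, 8 of 8 co-activator genes such as NCOA1 and EP300, and 10 of 11 genes of RXR partners such as VDR, THRA and PPARA. Of genes of retinoid oxidation and reduction 11 of 21 were tested, among them RDH10, ALDH1A2 and CYP26B1. Of uptake, storage and transport genes 2 of 10 (DGAT1 and FABP5) were tested, and of genes known to respond to retinoic acid 15 of 24. Between T-REX and a control, 12 of 486 values of the list were called, beside 2.32% of the values of all genes over the same 9 comparisons. They were 9 of 135 values of genes known to respond to retinoic acid, 2 of 90 of RXR partners and 1 of 72 of co-activators. Of the 486, 98 had an unadjusted p of at most 0.05, as had 964 to 3957 of all 14685 genes per comparison. Between 2 controls, 1 of 486 was called, beside 0.654% of the values of all genes. There, 75 had an unadjusted p of at most 0.05, as had 751 to 3422 of all 14685 genes per comparison. None of the 72 values of co-repressors, 99 of retinoid oxidation and reduction and 18 of uptake and transport was called between T-REX and a control by edgeR.

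Most of the list's calls fell at 12 h and downwards, which is no trait of the list alone. Most calls of all genes between T-REX and a control also fell at 12 h. Of those, 601 were higher and 997 lower against DMSO, 29 and 74 against probe alone, and 73 and 116 against light alone. At 12 h, 5 of 54 genes were lower under T-REX than with DMSO (9.26% of the list, beside 10.9% of all genes), 3 lower than with probe alone (5.56% beside 0.701%) and 1 lower than with light alone (1.85% beside 1.29%), and none was called higher. The median log2 fold change of the list at 12 h was -0.05 against DMSO, -0.04 against probe alone and -0.05 against light alone, beside a median of 0.00 over all genes in each. At 3 h, 2 genes were called against DMSO, with NCOA2, a co-activator, lower (-0.17, edgeR adjusted p = 0.0366) and NR4A2, an orphan receptor that pairs with RXR, higher (0.47, adjusted p = 0.0452). At 6 h, PPARA, the fatty acid receptor that pairs with RXR, was higher than with DMSO (0.33, adjusted p = 0.0337), and HOXB4, a homeobox gene, was the 1 call between controls, lower for light alone against probe alone (-0.79, adjusted p = 0.0200). These 4 genes, and ZNF503 and FOXA1 further on, were named after their values were seen. Each of the 4 calls was lost in at least 4 of the fits that left out 1 library of the arms compared, with adjusted p up to 0.0987 for NCOA2, 0.151 for NR4A2, 0.118 for PPARA and 0.157 for HOXB4.

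MEIS2, a homeobox gene that retinoic acid induces, had 43.5 to 47.6 CPM under T-REX at 12 h and 47.1 to 51.9 for light alone, below the 56.3 to 59.0 of the probe alone libraries and the 56.1 to 62.2 of the DMSO libraries. T-REX overlapped light alone and lay wholly below the other arms. Its log2 fold change was -0.37 against DMSO (SE 0.058, edgeR adjusted p = 0.000273) and -0.35 against probe alone (SE 0.058, adjusted p = 0.00257), and -0.14 against light alone (SE 0.058, adjusted p = 0.266). SOX9, which encodes an HMG-box transcription factor, had 14.2 to 19 CPM under T-REX at 12 h and 19.6 to 21 for light alone. The probe alone libraries had 24.4 to 28.4 CPM and the DMSO libraries 20.8 to 28, so that T-REX lay below each other arm with no overlap. Its log2 fold change was -0.59 against probe alone (SE 0.097, edgeR adjusted p = 0.00245), -0.49 against DMSO (SE 0.098, adjusted p = 0.00235) and -0.23 against light alone (SE 0.098, adjusted p = 0.304).

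BHLHE40, which encodes a basic helix-loop-helix repressor, had 77.5 to 93.0 CPM under T-REX at 12 h and 102.3 to 114.9 with light alone, with no overlap. The probe alone libraries had 91.8 to 114.5 CPM and the DMSO libraries 86.9 to 113, and both overlapped T-REX. Its log2 fold change was -0.38 against light alone (SE 0.077, edgeR adjusted p = 0.00768), -0.33 against probe alone (SE 0.077, adjusted p = 0.0388) and -0.20 against DMSO (SE 0.077, adjusted p = 0.0938). The call against probe alone was lost without T-REX replicates 1 (-0.34, adjusted p = 0.121), 2 (-0.29, adjusted p = 0.158) or 4 (-0.31, adjusted p = 0.155), probe alone replicates 1 (-0.29, adjusted p = 0.186), 2 (-0.33, adjusted p = 0.122) or 3 (-0.31, adjusted p = 0.173), light alone replicates 2, 3 or 4, or DMSO replicate 2 (adjusted p from 0.0523 to 0.0573). Also called at 12 h against DMSO were ZNF503 (-0.45, SE 0.11, edgeR adjusted p = 0.0107) and FOXA1 (-0.38, SE 0.11, adjusted p = 0.0224). FOXA1 was not called without T-REX replicates 1, 3 or 4 or DMSO replicates 2 or 3 (adjusted p from 0.0535 to 0.0837).

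The genes whose pattern over the arms was most like that of RARB were sought among 6573 genes whose arm means spanned at least 0.3 (log2). Each time was centred on the mean of its 4 arms, and Pearson's r was taken over the 12 means, which share libraries. DHRS3 came first (r = 0.927), followed by BLOC1S1 (0.915), H1-3 (0.894), MEIS2 (0.893) and ENSG00000277130 (0.890), an intronic transcript in GENCODE 29. DHRS3 is a member and MEIS2 is on the list of retinoic acid responsive genes, whereas BLOC1S1 encodes a subunit of a lysosome-related complex and H1-3 a linker histone. The spans were 1.33 for RARB, 0.72 for DHRS3, 0.55 for BLOC1S1, 0.36 for H1-3, 0.37 for MEIS2 and 0.40 for ENSG00000277130.

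Of these, BLOC1S1 had as few as 19 counts in a library and was called in no comparison of 2 arms. H1-3 was called lower under T-REX than with probe alone at 12 h (-0.36, SE 0.082, edgeR adjusted p = 0.0301). The least like were ENSG00000225339 (r = -0.98), POU6F1 (-0.94), a POU-domain factor gene, and ENSG00000265100 (-0.91), none of them called. These correlations over 12 means describe these libraries and carry no test.

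**Figure D5:**
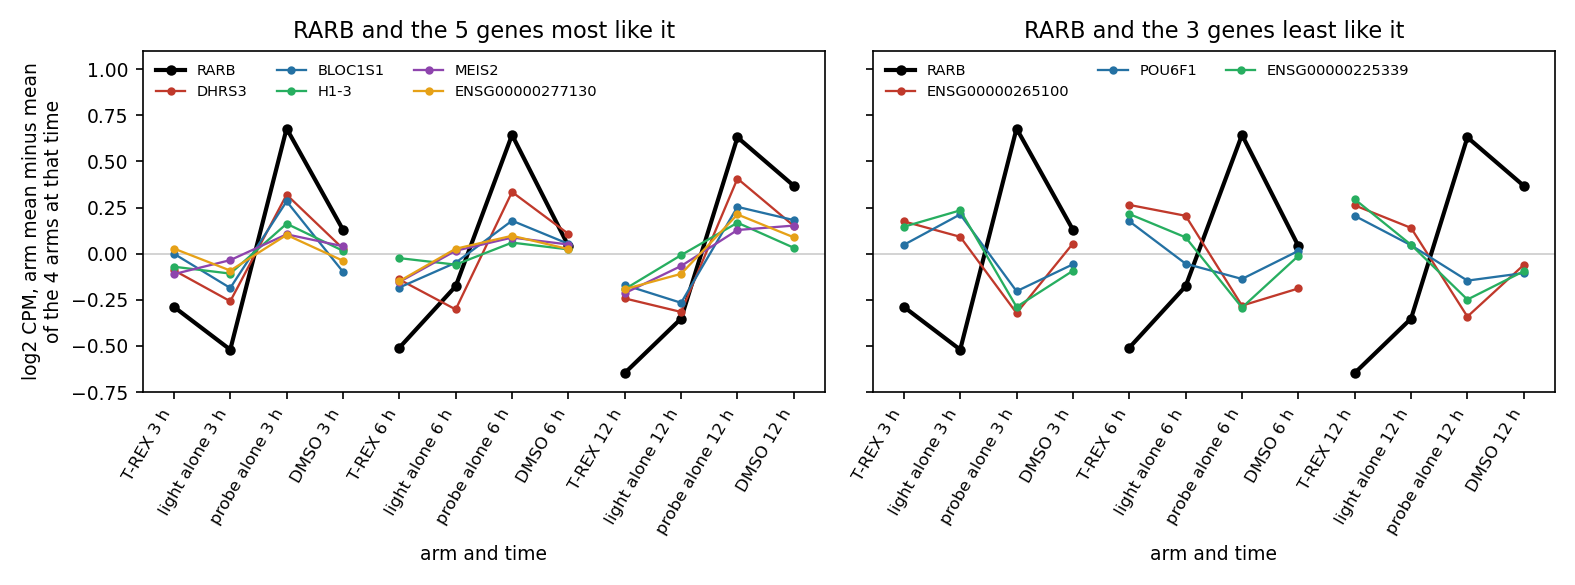
Mean log2 CPM of each arm minus the mean of the 4 arms at that time (y axis), for RARB (black) with the 5 most similar genes (left) and the 3 least similar (right), over the 12 arms and times on the x axis. RARB and DHRS3 peak with probe alone at each time, DHRS3 at smaller amplitude, and MEIS2 peaks with probe alone at 3 and 6 h and with DMSO at 12 h.

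The mean share of NCBP1 was not level over the arms, and its differences were not tested. At 3 h it held 7.59% ± 1.52 (SD, n = 4) of scaled counts under T-REX and 6.14% ± 0.653 for light alone, 6.46% ± 0.424 in the probe alone libraries and 5.38% ± 0.616 in those of DMSO. At 6 h the shares were 7.28% ± 0.596, 4.17% ± 0.891, 8.29% ± 1.20 and 5.37% ± 0.590, and at 12 h 5.75% ± 0.534, 4.05% ± 0.685, 5.92% ± 1.0 and 3.46% ± 0.455 in the same order. T-REX and probe alone, the arms with the lowest and the highest RARB at 6 and 12 h, were both high in NCBP1 then. The part of NCBP1 levels in the differences of RARB was not tested. In GENCODE 29, RARB overlaps TOP2B on the opposite strand by 28 bases at their ends, and whether counting used strand is not given in the sources used here. RXRB likewise overlaps SLC39A7 by 244 bases. TOP2B was called in 0 of 18 comparisons of arms in edgeR, with log2 fold changes from -0.19 to 0.08.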

How the data were processed

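RNA was measured by stranded sequencing after ribosomal RNA depletion in 48 libraries (4 arms, 3 time points, 4 replicates). Per the file headers, the authors deposited raw counts per gene, which are the values tested here, and log2 CPM per gene, used in 1 alternative. They also deposited 2 RUV factors, a score per library, used as covariates in 1 alternative, and tables corrected for these factors, not used here. The study names cutadapt, TopHat and Cufflinks for its RNA-seq, but the counter and genome build of the deposited counts are not given in the sources used here, so gene positions are not printed, apart from promoter windows of RefSeq (GRCh38.p14). Gene symbols and exon lengths come from GENCODE 29 and RefSeq tables.

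For each time point its 16 libraries entered 1 fit in edgeR 4.0.16 in R 4.3.3 (TMM, filterByExpr, which removed 0 genes, estimateDisp, robust glmQLFit and glmQLFTest), and time was tested in 1 fit of all 48. Adjusted p is Benjamini-Hochberg over all 14685 genes of a comparison, called at 0.05 or below. The fit was tested on simulated data. Alternatives were DESeq2 1.42.0, RLE factors, no filter, a mean of at least 100 counts, the replicate number as a block, RUV factors, only the libraries compared, limma 3.58.1 on log2 CPM, and leaving out each library. The members and gene lists were chosen with earlier results of these data known. Named genes are all members, list genes called in at least 2 of the 9 T-REX comparisons or 2 of the 9 between controls (6 others called once were added after their values were seen), the 5 genes most and 3 least like RARB, and NCBP1. The replicates are called independent by the submitters, and 72 replicate pairs differed by more than counting error (chi-square per degree of freedom 3.15 to 46.5). Tables and figures were made in Python 3.11.15. Some genes of the lists are counted but not reported by name here.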

Additional observations from a re-analysis of the deposited data

Results flagged for a closer look

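In 3 of the 96 groups of 4 libraries (8 members in 12 groups), 1 library stood apart from the other 3 by Dixon's criterion, which flags about 1 group in 20 by chance. RARB with light alone at 12 h had 27.2 CPM in replicate 3 against 25.4 to 25.7 in the others, a gap too small to move light alone out of its place between T-REX and DMSO. DHRS3 under T-REX at 6 h had 6.94 CPM in replicate 2 against 7.93 to 8.07. DHRS3 with DMSO at 12 h had 9.71 CPM in replicate 3 against 11.9 to 12.0, and without that library the difference between T-REX and DMSO was called (log2 fold change -0.45).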

How the results depend on the processing

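The 83 log2 fold changes followed were all called values of members, the arm differences of RARB and DHRS3, and the called values of the pathway list between arms. Of these, 0 turned direction where the main or the alternative value was called. Direction was not counted where neither was called. There, DHRS3 for T-REX against light alone at 12 h went from 0.09 to as low as -0.02 when 1 library was left out. DESeq2 changed 4 calls, RLE factors 1, the RUV factors 13 and a mean of at least 100 counts 3. Fits of only the libraries compared changed 15, the replicate block 5 and limma 2 of the 53 it could be run on. The filter on low counts removed 0 genes, so the fit without it was the same fit and could not change a call.

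Members called between T-REX and a control numbered 10, with 8 to 11 when 1 library was left out and 23 with the RUV factors as covariates. Between 2 controls they numbered 8, with 7 to 9 and 22. For the light and probe contrast it was 1, with 1 to 2 when 1 library was left out, 2 with DESeq2 and 3 with the RUV factors. Between time points it was 30, with 28 to 33 when 1 library was left out, 26 in fits of only the libraries compared and 41 with the RUV factors. For a T-REX difference that changes with time it was 0, with 0 to 1, 2 with DESeq2, 1 with a mean of at least 100 counts, 2 with the replicate block and 5 with the RUV factors. Pathway genes called between T-REX and a control numbered 12, with 10 to 16, 27 with DESeq2 and 69 with the RUV factors, and between 2 controls 1, with 0 to 6, 11 with DESeq2, 5 in fits of only the libraries compared and 58 with the RUV factors. With the RUV factors the share of all genes called rose too, to 26.7% for T-REX against DMSO at 12 h. For the other alternatives, and for the RUV factors over time, the share of all genes called is not given here. Their counts are therefore not read as results about these genes. The cause of these differences was not tested, and the RUV factors were made by the authors from these libraries by a method not given in the sources used here.

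The replicate numbers showed no steady pairing of the libraries (correlation of deviations from -0.49 to 0.49 over same-numbered pairs). The 6 pairs of replicate 3 at 3 h were all positive (0.07 to 0.41), and differently numbered pairs were not set beside them, so pairing is not excluded. With the replicate block the numbers of members called were 12 and 8 between arms and 29 between times. The limma fit was not run for comparisons over time, since log2 CPM may be scaled per time point. Depth limits CRABP2 and RARG, with 32 and 45 counts in their lowest libraries, and gene counts cannot tell RARB transcripts apart.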
